A study of Mus musculus with 4 samples.

Results

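The block described here is a gene-dense stretch of mouse chromosome 16 that surrounds Aifm3, a mitochondrial flavoprotein gene and 1 of 2 genes of this chromosome called lower in cKO libraries. Its members were all protein-coding genes whose start lies between 17 and 18.9 Mb on chromosome 16 (GRCm38) and that had at least 40 counts over the 4 libraries, without Aifm3 and without Mrpl40, a mitochondrial ribosomal protein gene. Of 26955 genes in the table, 56 protein-coding genes started in this region, 5 had fewer than 40 counts and 49 were members. The member nearest to the minimum was Tssk1 with 40 counts, and the nearest gene below it was Tssk2 with 32. The rule itself used no measured difference between the groups, but the block was placed around Aifm3 with earlier results of these data known.

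RNA was sequenced from embryonic C57BL/6 brain labelled E13, which the study's methods describe as cerebral cortex, with 2 libraries per group. The cKO group (replicates 2 and 6) had the genotype GSDMDfl/fl;Nestin-Cre, in which Cre under the Nestin promoter deletes floxed Gsdmd, the gene of the pore-forming protein of pyroptosis, in neural progenitors and their progeny. The group labelled WT (replicates 4 and 5) served as control, and the study's text calls its controls Gsdmd fl/fl. A piece of brain also holds vessels, blood and microglia, and whether Cre acted in these cells was not tested. The libraries had 16962553 to 18205945 counts, and Gsdmd had 13 and 7 counts in cKO replicates 2 and 6 against 54 and 43 in WT replicates 4 and 5. Whether each library came from its own mouse is not stated, so a p-value speaks of the spread among 4 libraries, part of which may be technical.

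In humans most of the corresponding genes lie on 22q11.2, in a region flanked by repeats that often recombine. Loss of one copy causes 22q11.2 deletion syndrome, known as DiGeorge or velocardiofacial syndrome, with heart, thymus, palate and neuropsychiatric features. The genes do not form one pathway. They include the transcription factor gene Tbx1, the microRNA-processing gene Dgcr8, the mitochondrial genes Prodh, Slc25a1 and Txnrd2, and the adaptor genes Crkl and Lztr1, and in the mouse they remain together on chromosome 16 in a rearranged order.

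None of the 49 members was called lower or higher in cKO at an adjusted p under 0.05, with edgeR's quasi-likelihood test fitted on all 15804 genes that passed a filter on low counts and Benjamini-Hochberg adjustment over them. The background was 0.196% of tested genes called lower in cKO and 0.00633% called higher, and a count of 0 in 49 genes lies near these shares. With limma-voom, DESeq2 and the likelihood ratio test of edgeR, 0 members were called as well. At an unadjusted p under 0.05, 1 member (Pi4ka) passed in each of the 4 tests, against 7.11% of all tested genes in the quasi-likelihood test. All 49 members passed the filter.

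Aifm3 itself (ENSMUSG00000022763, 17489611 to 17507485 on the plus strand) had 14.8 and 18.3 CPM in WT replicates 4 and 5 and 3.69 and 3.79 CPM in cKO replicates 2 and 6, where CPM is the gene's count relative to the library size after TMM scaling. The groups lay far apart. Its log2 fold change, cKO over WT, was -2.14 (SE 0.20, adjusted p = 0.0030). The call was lost with no filter on low counts (adjusted p = 0.0542) and without WT replicate 5, where no gene at all was called (log2 fold change -1.97, adjusted p = 0.769). Mrpl40 had 38.8 and 40.4 CPM in WT and 38.8 and 43.4 CPM in cKO, with a log2 fold change of 0.05. On chromosome 16 Olig2, an oligodendrocyte lineage transcription factor gene outside the block, was the other called gene (log2 fold change -1.68, adjusted p = 0.0373).

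The member before Aifm3, Crkl, ended 3355 bases before the start of Aifm3, and Lztr1 started 1202 bases after its end. Because the only called gene of the region sat between these members, the sequence before the start of Aifm3 is shown with those of Crkl and Thap7, a member on either side, and with the short gap between Tango2 and Arvcf, which start back to back. The sequences are from RefSeq windows on GRCm38.p6 that reach 250 bases before a gene's start, cut where a gene begins and written 5′ to 3′ on the gene's strand (plus strand for the gap). Capitals mark a GC box (GGGCGG or its reverse complement CCGCCC) or a CCAAT box (CCAAT or ATTGG).
Crkl promoter, chr16:17451735-17451984, plus strand: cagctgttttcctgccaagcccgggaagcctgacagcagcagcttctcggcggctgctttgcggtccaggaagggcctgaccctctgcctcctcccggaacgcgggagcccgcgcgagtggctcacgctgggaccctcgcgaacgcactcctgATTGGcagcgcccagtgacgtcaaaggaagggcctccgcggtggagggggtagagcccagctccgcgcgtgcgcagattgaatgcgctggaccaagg
Aifm3 promoter, chr16:17489427-17489610, plus strand: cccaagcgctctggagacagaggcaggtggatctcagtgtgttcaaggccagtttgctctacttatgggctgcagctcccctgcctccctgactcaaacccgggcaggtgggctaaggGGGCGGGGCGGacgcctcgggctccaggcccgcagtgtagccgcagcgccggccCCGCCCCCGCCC
Thap7 promoter, chr16:17531137-17531302, minus strand: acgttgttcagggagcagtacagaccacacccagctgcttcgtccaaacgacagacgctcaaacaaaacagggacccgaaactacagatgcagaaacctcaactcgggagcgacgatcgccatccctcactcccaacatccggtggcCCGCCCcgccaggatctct
Tango2-Arvcf gap, chr16:18348104-18348181, plus strand: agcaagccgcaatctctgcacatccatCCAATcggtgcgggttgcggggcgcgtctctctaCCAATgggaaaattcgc
The Aifm3 stretch held 4 GC boxes in 184 bases, the Thap7 stretch 1 in 166 bases and the Crkl stretch none, while the Crkl stretch held 23 CpG in 250 bases. The gap held 2 CCAAT boxes in 78 bases. Of the 49 members, 42 had a RefSeq window. In the 250 bases before the start a GC box was found in 54.8% of them against 32.7% of all 32851 windows, a CCAAT box in 47.6% against 33.8%, and TATAAA, searched on both strands, in 11.9% against 12.4%. The median window of the members held 15 CpG and that of all 32851 windows 6. Unlike the members, the full set was not limited to protein-coding genes or to genes with at least 40 counts. These matches describe the letters of the windows only.

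The 3 members on either side of Aifm3 are described first. Pi4ka (ENSMUSG00000041720, 17280351 to 17406314, minus strand), the kinase that makes phosphatidylinositol 4-phosphate at the plasma membrane, had 100.5 and 93.2 CPM in WT replicates 4 and 5 and 124 and 120.5 CPM in cKO replicates 2 and 6. Both cKO libraries were above both WT libraries. The log2 fold change was 0.33 (SE 0.10, 95% interval 0.10 to 0.57), with an unadjusted p of 0.0105 and an adjusted p of 0.509 in edgeR's quasi-likelihood test, so it was not called. It was the single member whose interval did not include 0, and its fold change stayed between 0.29 and 0.39 when each library was left out. Pi4ka overlaps the start of Snap29 by 312 bases, and whether reads were counted by strand is not known.

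Snap29, a SNARE protein gene of membrane fusion and autophagy, had 26.5 and 25.4 CPM in WT and 29.4 and 27.2 CPM in cKO. Its groups did not overlap, but the log2 fold change was 0.13 (interval -0.20 to 0.45). Crkl, an adaptor that links tyrosine kinases to small GTPases, had 33.4 and 22.7 CPM in WT and 34.4 and 28.5 CPM in cKO. Here the WT libraries differed from each other by more than the group means did, and the log2 fold change of 0.16 had an interval of -0.29 to 0.62.

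Lztr1, a ubiquitin ligase adaptor that lowers Ras proteins, had 148 and 153 CPM in WT and 164 and 169.5 CPM in cKO. The groups did not overlap, and the log2 fold change was 0.15 (interval -0.09 to 0.40). Thap7, a zinc finger gene, had 25.6 and 30.6 CPM in WT and 26.2 and 36.7 CPM in cKO, so that the groups overlapped around a log2 fold change of 0.16 (interval -0.27 to 0.60). P2rx6, a subunit of ATP-gated channels, was low in all libraries, at 1.38 and 1.13 CPM in WT and 1.49 and 2.51 CPM in cKO. It had the highest log2 fold change of the block, 0.67, but its interval ran from -0.20 to 1.53 and most of the difference lay in cKO replicate 6, without which the value was 0.26. Adjusted p-values of these 6 neighbours ranged upward from 0.509.

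**Figure D1:**
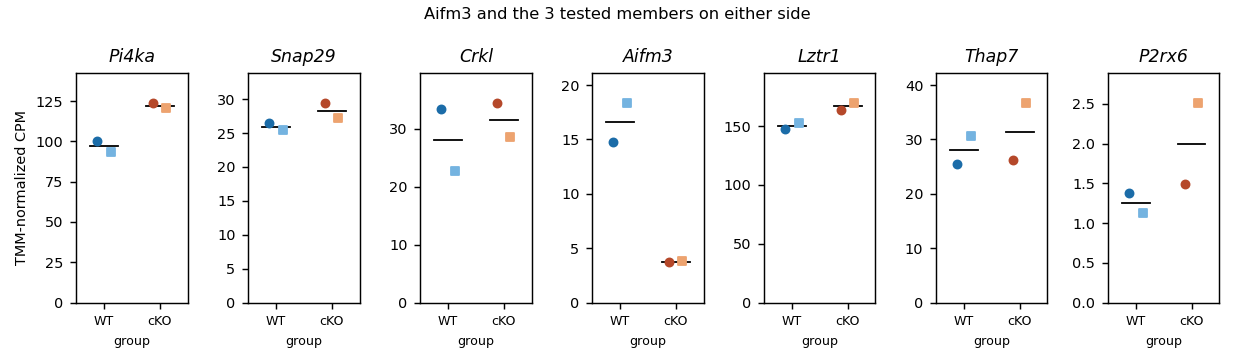
Level in TMM-normalized CPM (y axis from 0, one scale per gene) of Aifm3 and of the 3 members on either side of it in the WT and cKO groups. Points are libraries (WT 4 and cKO 2 circles, WT 5 and cKO 6 squares) and bars are group means; Aifm3 had 14.8 and 18.3 CPM in WT against 3.69 and 3.79 in cKO, while no neighbour differed by as much and Crkl and Thap7 overlapped between the groups.

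Over the whole block the log2 fold changes were small. Their median was 0.07 (interquartile range 0.00 to 0.17), from -0.31 for Hic2 to 0.67 for P2rx6, and 36 members lay above 0 and 13 below. The median over all tested genes was -0.01 with 47.6% above 0, and over the 420 other tested genes of chromosome 16 it was -0.02 with 45.0% above 0. Regardless of sign, the median size was 0.136 for members and 0.139 for all tested genes. A log2 fold change of 1 either way was reached by 0 of 49 members and 374 of 15804 tested genes. So few of all tested genes reached it that 0 in 49 lies near their share. The block's median depended on the libraries: it was 0.00 without cKO replicate 6 and 0.14 without WT replicate 5.

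The 95% intervals, which are not adjusted for the number of genes, show what sizes of change the libraries could still have held. For all 49 members the interval excluded a halving in cKO. A doubling was excluded for 41, and the other 8 were among the 13 members under 10 CPM. For 31 members the interval lay within 1.5-fold in both directions, and for 48 it included 0. Of all 15804 tested genes, the interval excluded a halving in 13779 and a doubling in 14072. It lay within 1.5-fold in 8972 of them and included 0 in 14681. The share for a doubling was thus no higher among the members than among all tested genes. The tightest case was Ufd1, a gene of the p97 machinery that extracts ubiquitinated proteins, with 95.3 and 95 CPM in WT and 94.2 and 96.8 CPM in cKO and an interval of -0.22 to 0.23. The widest was Tssk1, a germ cell kinase gene, with 0.401 and 0.476 CPM in WT and 0.716 and 0.669 CPM in cKO and an interval of -0.51 to 1.82.

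**Figure D2:**
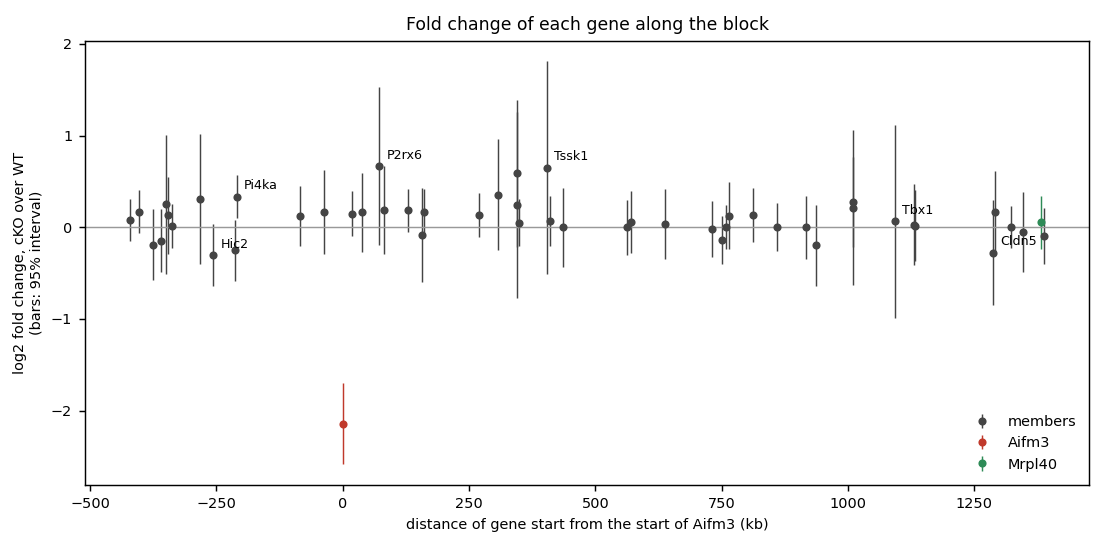
Log2 fold change, cKO over WT (y axis), of each gene of the block against the distance of its start from the start of Aifm3 in kb (x axis); bars are 95% intervals from edgeR's quasi-likelihood fit. Aifm3 stood at -2.14, Mrpl40 at 0.05, and the members between -0.31 and 0.67, with bars that include 0 for 48 of 49.

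**Figure D3:**
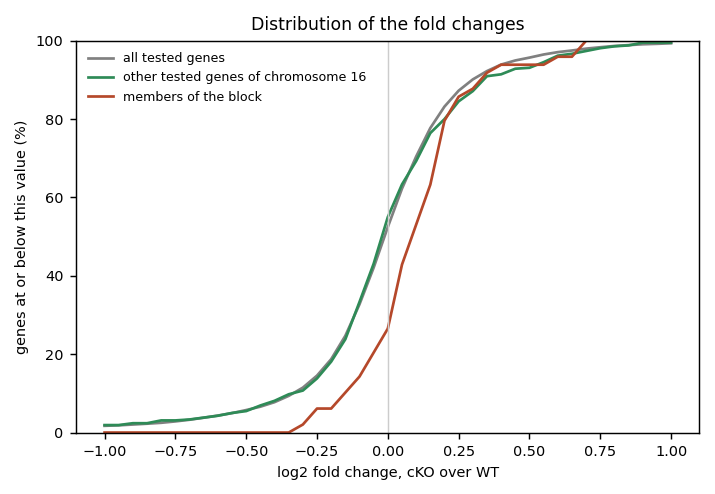
Share of genes (y axis, percent) with a log2 fold change, cKO over WT, at or below the value on the x axis, for the 49 members, the 420 other tested genes of chromosome 16 and all 15804 tested genes. The line of the members lies to the right of the others below a value of 0.2 and meets them above it, with a median of 0.07 against -0.02 and -0.01.

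In 14 members (28.6%) both cKO libraries were above both WT libraries, against 16.9% of all tested genes, and in 5 members (10.2%) both were below, against 20.3%. The 5 were Sdf2l1, Hic2, Tmem191c, Ranbp1 and Hira. Summed over the block, the members made up 2698 and 2841 CPM in WT and 2779 and 2913 CPM in cKO, so the groups overlapped. The share of all counts was 0.271% and 0.281% in WT and 0.282% and 0.287% in cKO. In 37 of 49 members the ratio between the libraries of 1 group was larger than the ratio between the group means. The larger of the within-group ratios was taken, which favours this outcome for any gene. The share over all tested genes was not computed, so the count does not set the block apart. The highest level of a member was found in cKO replicate 6 for 19 members and the lowest in WT replicate 4 for 19, so that these libraries carry much of the difference in counts above and below 0.

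The members were also grouped by lists drawn up for each part of the human deletion. The placement of single genes in them, such as Smpd4, was not checked against human gene positions. The 23 members listed for the proximal part, which lie between Dgcr2 and Hira in the mouse, had a median log2 fold change of 0.02, and 16 were above 0. Rtl10 (0.21) and 2510002D24Rik (-0.05) lie in the same stretch but are in no list. The 11 members listed for the distal part, which lie on both sides of Aifm3 between Pi4ka and Scarf2, had a median of 0.17. All 11 were above 0, against 47.6% of all tested genes. In 8 both cKO libraries were above both WT libraries, against 16.9% of all tested genes. A further member of this stretch that is in no list, Ccdc74a, went the other way, with 4.59 and 6.07 CPM in WT and 5.23 and 4.79 CPM in cKO, overlapping groups and a log2 fold change of -0.09. At the edge of the stretch Tmem191c, which overlaps Pi4ka and is in no list, had a log2 fold change of -0.25. Both of its cKO libraries were below both WT libraries. Past Scarf2, Car15, also in no list, was low in all libraries and had a log2 fold change of 0.59. Both of its cKO libraries were above both WT libraries. None of these genes passed the test. The median of the 11 stayed between 0.15 and 0.26 when each library was left out, with 9 members above 0 without cKO replicate 6 and 10 without WT replicate 4 or WT replicate 5. The 8 members that correspond to genes beyond the common human deletion had a median of 0.10, and 7 members were in none of these lists.

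The other members listed for the distal part are given here. Smpd4, a neutral sphingomyelinase gene, had 88.0 and 82.0 CPM in WT and 99.1 and 94.2 CPM in cKO, with a log2 fold change of 0.18 (interval -0.05 to 0.42). Med15, a subunit of Mediator, had 79.8 and 81.7 CPM in WT and 84.7 and 96.5 CPM in cKO (0.17), and Klhl22, a cullin ligase adaptor, 67.7 and 72.3 CPM against 78.7 and 75 CPM (0.13). In these 3 genes both cKO libraries were above both WT libraries, and the intervals included 0. Slc7a4, of the cationic amino acid transporter family, overlapped between the groups (9.75 and 13.2 against 11.3 and 14.9 CPM). Scarf2, a scavenger receptor gene, had 2.47 and 3.51 CPM in WT and 3.64 and 4.01 CPM in cKO, and a log2 fold change of 0.36 (interval -0.24 to 0.96).

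Compared per kilobase of exon, the levels of the members spanned 3 orders of magnitude. Ranbp1 was highest with a mean of 194 CPM per kb, followed by Sept5 with 73.1 and Slc25a1 with 50. Tssk1 was lowest with 0.153 CPM per kb, and Gm20518, Rimbp3, Ccdc116, Tbx1, P2rx6, Car15 and Scarf2 were also under 1. The libraries of Ranbp1 lay clear of those of Sept5, while the lowest library of Sept5 (60.4 CPM per kb) and the highest of Slc25a1 (60.0) nearly met without overlapping.

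**Figure D4:**
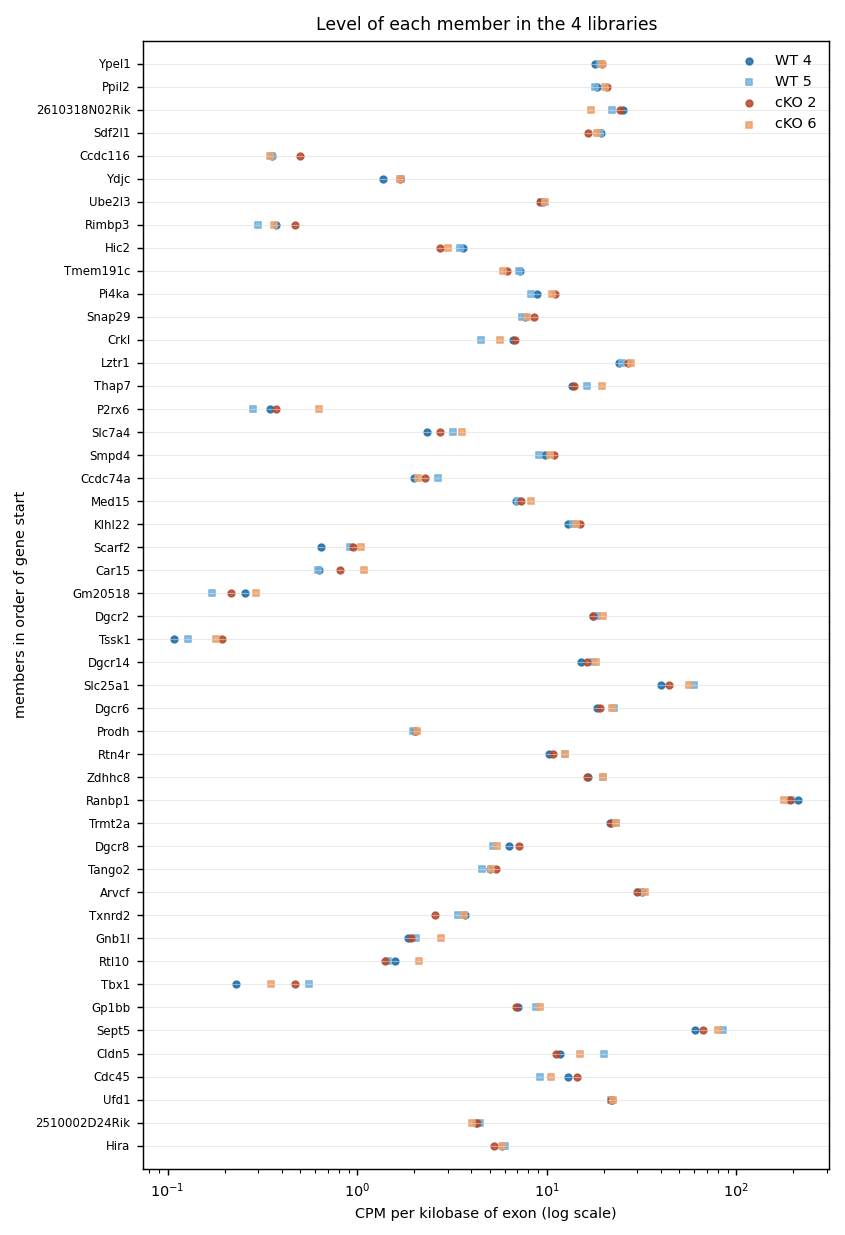
CPM per kilobase of exon (x axis, log scale) of 48 members in each of the 4 libraries, in order of gene start (y axis). Levels ran from a mean of 0.153 for Tssk1 to 194 for Ranbp1, and the spread of the 4 points of a gene was small beside the spread between genes.

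The 19 tested genes of the deletion syndrome list, not all of them named here, had a median log2 fold change of 0.02 and adjusted p-values of 0.841 (Lztr1) or higher. Tbx1, the T-box factor gene held to be central to the heart defects of the syndrome, was barely expressed, with 0.803 and 1.96 CPM in WT and 1.65 and 1.23 CPM in cKO. The WT libraries enclosed both cKO libraries, and the log2 fold change of 0.06 had an interval of -0.99 to 1.11. Dgcr8, the RNA-binding partner of Drosha in microRNA processing, had 48.6 and 39.9 CPM in WT and 54.8 and 41.8 CPM in cKO, a log2 fold change of 0.13 (interval -0.24 to 0.49) with overlapping groups. Hira, a histone H3.3 chaperone gene, had 35.95 and 37.3 CPM in WT and 32.8 and 35.85 CPM in cKO. The highest cKO library nearly met the lowest WT library, and the log2 fold change was -0.09 (interval -0.40 to 0.21).

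Outside that list, Hic2, a zinc finger repressor gene beyond the common deletion, had 23.1 and 22.3 CPM in WT and 17.4 and 19.2 CPM in cKO. Both cKO libraries were below both WT libraries, and this lowest log2 fold change of the block was -0.31 (SE 0.15, interval -0.65 to 0.03, adjusted p = 0.744). Ppil2, a peptidyl-prolyl isomerase gene, had 113 and 111 CPM in WT and 127 and 125 CPM in cKO (log2 fold change 0.17). Dgcr14, now named Ess2 and tied to splicing, and Trmt2a, a tRNA methyltransferase gene, had log2 fold changes of 0.07 and 0.01 with overlapping groups.

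Among the mitochondrial members, Slc25a1, the citrate carrier of the inner membrane, had 86.4 and 130 CPM in WT and 95.2 and 121 CPM in cKO. The WT libraries again enclosed the cKO libraries, and the log2 fold change was 0.00 (interval -0.43 to 0.43). Prodh, which oxidizes proline, was the steadiest of them, with 15.5 and 15.4 CPM in WT and 16 and 16.2 CPM in cKO, a log2 fold change of 0.06 (interval -0.28 to 0.40). Txnrd2, the mitochondrial thioredoxin reductase, had 16.3 and 14.9 CPM in WT and 11.3 and 16 CPM in cKO. Its log2 fold change of -0.20 (interval -0.64 to 0.25) rested on cKO replicate 2, without which it was 0.03. Tango2, whose loss causes a metabolic disease in humans, had 39.7 and 36.1 CPM in WT and 42.8 and 40.3 CPM in cKO (0.13).

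Further members of the deletion syndrome list follow. Rtn4r, the Nogo receptor that limits axon growth, had 19.8 and 24.3 CPM in WT and 20.9 and 24.2 CPM in cKO (0.03, interval -0.35 to 0.42). The WT libraries enclosed the cKO libraries.

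Zdhhc8, a palmitoyltransferase gene, had 80.7 and 96.7 CPM in WT and 79.1 and 96.2 CPM in cKO (-0.02, interval -0.32 to 0.29). Sept5, a septin of presynaptic vesicle release, had 236 and 332 CPM in WT and 263 and 313 CPM in cKO (0.02, interval -0.37 to 0.41). In both genes the 2 libraries of a group differed far more than the group means. Arvcf, a catenin of cadherin junctions, had 214.5 and 207 CPM in WT and 201 and 222 CPM in cKO (0.00, interval -0.26 to 0.27), and Dgcr2, a membrane receptor gene, 119.8 and 126 CPM against 119.9 and 135 CPM (0.05, interval -0.20 to 0.30). Gnb1l, a WD repeat protein gene, had 7.80 and 8.57 CPM in WT and 8.10 and 11.7 CPM in cKO, and its log2 fold change of 0.27 (interval -0.21 to 0.76) was 0.00 without cKO replicate 6.

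Cldn5, the tight junction protein of brain endothelium, had 16.6 and 28.3 CPM in WT and 15.9 and 21.2 CPM in cKO. The highest of these libraries had 1.78 times the level of the lowest, the widest ratio among the members with at least 10 CPM. Its log2 fold change was -0.28 (interval -0.85 to 0.30) and turned to 0.17 without WT replicate 5. Of 12 other endothelial and junction genes 0 were called, with a median log2 fold change of -0.05, and their summed level was 179 and 185 CPM in WT and 174 and 186 CPM in cKO. Ocln, a junction protein gene, had the lowest p of them (log2 fold change -0.96, adjusted p = 0.704). In bulk tissue fewer cells of a type and less RNA per cell cannot be told apart. Gp1bb, a platelet receptor subunit gene, had 14.7 and 18.3 CPM in WT and 14.4 and 19.2 CPM in cKO, and its body overlaps that of Sept5 on the same strand, so reads of the 2 genes may be shared. Of 6 listed megakaryocyte and platelet markers, 2 passed the filter on low counts. Their summed level was 3.84 and 5.12 CPM in WT and 3.69 and 5.52 CPM in cKO, below that of Gp1bb alone.

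Ranbp1, which acts with Ran in nuclear transport, had 353 and 324 CPM in WT and 320 and 296 CPM in cKO. Both cKO libraries were lower, cKO replicate 2 only slightly below WT replicate 5, and the log2 fold change was -0.14 (SE 0.12, interval -0.40 to 0.13, adjusted p = 0.867). Of 9 other genes of the Ran cycle 0 were called, with a median of -0.04, and Xpo1, an export receptor, had the lowest p (-0.20, adjusted p = 0.842). Cdc45, a component of the replicative helicase, had 45.4 and 32.4 CPM in WT and 50.4 and 36.9 CPM in cKO (0.17, interval -0.29 to 0.62). WT replicate 4 and cKO replicate 2 were high and the other two low. The 11 MCM and GINS genes that act with Cdc45 had a summed level in the same order, 1384 and 1177 CPM in WT and 1416 and 1256 CPM in cKO, with a median log2 fold change of 0.01 and 0 calls. Mcm5 had the lowest p of them (log2 fold change 0.15, adjusted p = 0.849).

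The partners of other members were not called either. Of 11 genes of microRNA processing 0 were called, the median was 0.14 and 2 had an unadjusted p under 0.05. They were the exporter gene Xpo5, with 72.5 and 57.1 CPM in WT and 104 and 85.5 CPM in cKO (log2 fold change 0.55, adjusted p = 0.386), and Ago1, an Argonaute gene (0.35, adjusted p = 0.604). Of 9 genes of histone H3.3 deposition 0 were called and the median was -0.11, with H3f3b, a gene of H3.3 itself, at -0.23 (adjusted p = 0.696). Of 14 genes of the ERK cascade 0 were called and the median was -0.01. Of 8 ligands, coreceptors and relatives of the Nogo receptor 0 were called and the median was 0.23, with the coreceptor gene Tnfrsf19 at 0.59 (adjusted p = 0.476). The genes of p97 (6 tested, median -0.05) and of mitochondrial thioredoxin and citrate metabolism (8 tested, median 0.01) also had 0 calls.

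In 7 places 2 genes of the block, or a member and Mrpl40, start within 1000 bases of each other on opposite strands, and in 4 of them the genes overlap. The levels within a pair ranged from nearly equal to very unequal. Pi4ka had 9.73 CPM per kb against 7.87 for Snap29, and Ufd1 had 22.0 against 11.8 for Cdc45. Ranbp1 had 194 CPM per kb against 22.4 for Trmt2a, Dgcr2 had 18.3 against 0.153 for Tssk1, and Arvcf had 31.4 against 5.02 for Tango2, whose shared gap with 2 CCAAT boxes is printed above. The log2 fold changes of a pair differed by at most 0.60 (Dgcr2 and Tssk1), and in the 5 pairs of 2 members other than that one by at most 0.21 (Pi4ka and Snap29).

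Several members varied between libraries irrespective of genotype. Slc25a1, Sept5, Zdhhc8, Slc7a4, Thap7 and Cldn5 were higher in WT replicate 5 and cKO replicate 6 than in WT replicate 4 and cKO replicate 2. Cdc45, Crkl and Dgcr8 had the opposite order. Among members with at least 10 CPM, the ratio of the highest to the lowest library was 1.78 for Cldn5, 1.56 for Cdc45, 1.53 for Slc7a4, 1.51 for Crkl and 1.5 for Slc25a1. WT replicate 5 also had 7640 counts of Xist, against 1 to 12 in the others, so the libraries differed in sex.

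**Figure D5:**
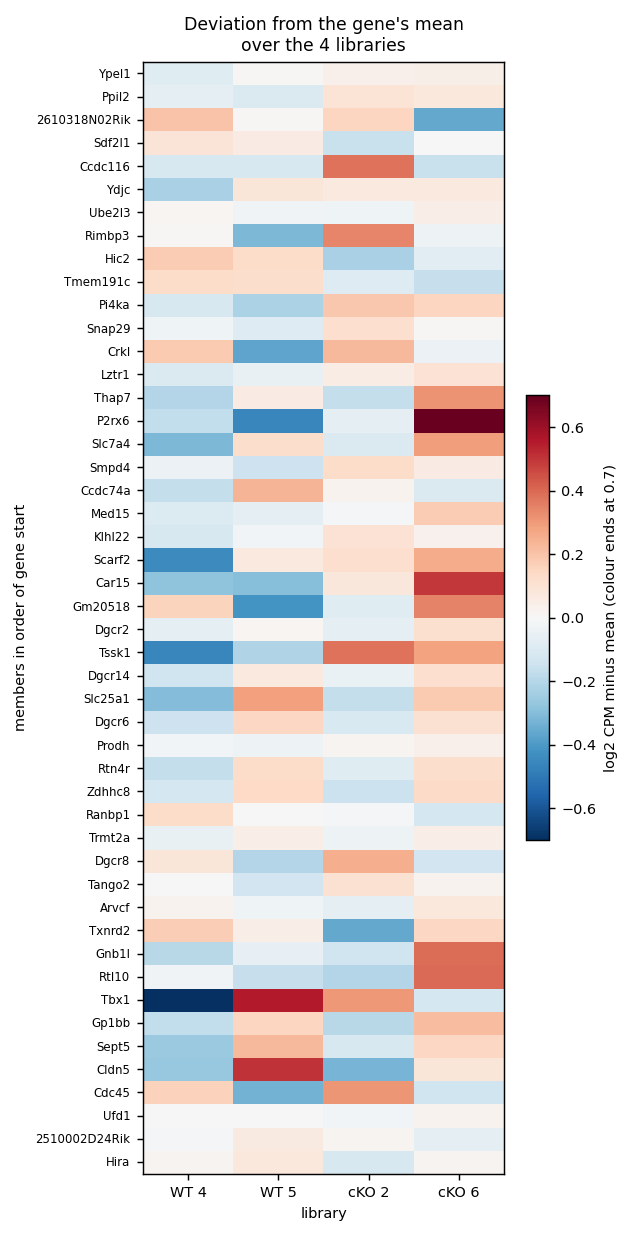
Deviation of the log2 CPM of 48 members in each library from the gene's mean over the 4 libraries (colour scale, red higher and blue lower, ends at 0.7), with members in order of gene start (y axis) and libraries on the x axis. Cldn5, Sept5 and Slc25a1 are red in WT 5 and cKO 6, and Cdc45 and Crkl are red in WT 4 and cKO 2, while the Pi4ka row is red in both cKO libraries.

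The summed levels of ventral telencephalon, blood and microglia markers were lower in both cKO libraries than in both WT libraries, that of dorsal telencephalon markers was higher, and that of mesenchyme markers overlapped, with 0 markers called. The 9 ventral telencephalon markers summed to 1095 and 1225 CPM in WT and 803 and 541 CPM in cKO, with 9 of 9 below 0, 8 at an unadjusted p under 0.05 and 0 called. The 9 blood markers summed to 689 and 1035 CPM in WT and 527 and 567 CPM in cKO, with 9 of 9 below 0, 7 at an unadjusted p under 0.05 and 0 called. The 10 dorsal telencephalon markers, the defining genes of cortex, summed to 2819 and 2527 CPM in WT and 2890 and 3199 CPM in cKO, with 9 of 10 above 0, 3 at an unadjusted p under 0.05 and 0 called, and none was at 0 in all libraries. The 6 microglia markers summed to 31.8 and 31.4 CPM in WT and 24.0 and 27.9 CPM in cKO. Of 7 mesenchyme markers 4 passed the filter on low counts. These 4 summed to 25.8 and 31.7 CPM in WT and 27.7 and 22.1 CPM in cKO. The part of tissue composition in the block's values was not tested.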

How the data were processed

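RNA from 4 libraries of embryonic mouse brain was sequenced by the authors. HTSeq 0.6.0, TopHat2 2.0.12, Bowtie2 2.2.3 and the build mm9 are named in the processing notes of the submitters. The deposited table holds whole-number counts per gene. Its positions are those of GRCm38: start and end equalled GENCODE M21 for 92.9% of 26897 matched genes. For strand, annotation release and filters the settings were not given in the sources used here. Of 49 members 31 overlap another gene, many by a short stretch, and reads in shared bases may be ambiguous. The authors' columns of mean, fold change, p-value and call were not used. Sept5, turned into a date in the table, was restored by its gene ID.

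Counts were tested with edgeR 4.0.16 (R 4.3.3; TMM, filterByExpr, quasi-likelihood F test, prior count 0.125, no covariate), and p-values were adjusted by Benjamini-Hochberg over 15804 genes. The standard error is the log2 fold change divided by the root of F, and the 95% interval uses the t distribution of the fit. The typical coefficient of variation was 13.0%. The fit was tested on simulated data. Named with full values were members at an unadjusted p under 0.05, the 3 on either side of Aifm3, deletion syndrome genes, the highest and lowest members per kilobase, and up to 2 genes of a partner list by smallest p. Others, such as Hic2, Cldn5's spread and the back-to-back pairs, were chosen after their values were seen, as were the interval counts and promoter motifs. Members and lists were chosen with earlier results of these data known. Alternatives were other scalings, tests (DESeq2 1.42.0, limma 3.58.1) and filters, and leaving out each library. One member counts in the totals but is not reported here by name.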

Additional observations from a re-analysis of the deposited data

How the results depend on the processing

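No member was called under any alternative: the scalings of DESeq2 and of total counts, DESeq2, the likelihood ratio test, limma-voom, no filter, at least 1 CPM in 2 libraries, no X and Y genes, and leaving out each library. When 1 library was left out the lone library of its group was assumed to vary like the others. Over the members the lowest adjusted p was then 0.181 to 0.827, and 0 to 4 members had an unadjusted p under 0.05, a threshold added after seeing the data. The median log2 fold change of the members was -0.000985 (without cKO replicate 6) to 0.144 (without WT replicate 5) against 0.07. The count of members whose groups do not overlap was 19, beside 37.2% of all tested genes. It was 32 to 35 with a library left out, by construction of a group of 1 and beside 64.8% to 71.4% of all tested genes, and 8 among the 18 members that overlap no gene. Leaving out a library turned the sign of 13 named members, which ranged for Crkl from -0.0770 to 0.47, Thap7 from -0.0856 to 0.39, Tbx1 from -0.45 to 0.85, Dgcr8 from -0.0799 to 0.32, Zdhhc8 from -0.15 to 0.13, Rtn4r from -0.11 to 0.20, Txnrd2 from -0.46 to 0.0347, Slc25a1 from -0.26 to 0.33, Cldn5 from -0.61 to 0.17, Sept5 from -0.21 to 0.29, Gnb1l from -0.00182 to 0.52, Dgcr2 from -0.0236 to 0.14 and Arvcf from -0.0554 to 0.0773. Other settings turned only values near 0: Slc25a1 was -0.000351 with at least 1 CPM and -0.00191 without X and Y genes. The cause was not tested. No paired analysis was possible because the groups share no replicate number. For 8 of the 13 members under 10 CPM the interval did not exclude a doubling at this depth.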

Other observations

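In this region the deposited table also listed 15 genes that are not protein-coding. Of these, 6 passed the filter on low counts. By edgeR's quasi-likelihood test 0 were called, with 0 at an unadjusted p under 0.05. The lincRNA 1700056N10Rik, before the first member and overlapping no gene, had 1.89 and 1.19 CPM in WT replicates 4 and 5 and 0.826 and 0.892 CPM in cKO replicates 2 and 6. Both cKO libraries were lower, with a log2 fold change of -0.84 (interval -1.77 to 0.08, adjusted p = 0.737). Gm25777, a snoRNA gene inside Ranbp1, had 1.95 and 1.67 CPM in WT and 1.21 and 1.62 CPM in cKO (log2 fold change -0.35, interval -1.13 to 0.42), beside -0.14 for Ranbp1 itself. The 2 miRNA genes that the deposited table lists in the region, Mir130b and Mir301b, had 8 and 1 counts in all and were not tested. These genes were described after their values were seen.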
